A study of Mus musculus with 60 samples.

Results

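Retinoic acid is the active form of vitamin A, and the 9 genes described here make it, remove it, carry it or bind it. They are the retinaldehyde dehydrogenases *Aldh1a1*, *Aldh1a2* and *Aldh1a3*, the retinaldehyde reductase *Dhrs3*, the retinoic acid hydroxylase *Cyp26b1*, the receptors *Rara* and *Rarb*, and the binding proteins *Crabp1* and *Crabp2*. The set was chosen by the measured level of *Cyp26b1*, which was much higher in dorsal than in ventral dentate gyrus (DG), so region differences of these genes are given as a description, without a test. All 9 were among the 46480 genes counted, and all 9 were tested, as 17040 genes were that exceeded 10 counts in 2 or more samples. For *Crabp1* only 6 of 18 samples were above that count, for *Crabp2* 11 and for *Aldh1a3* 15.

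RNA-Seq was collected from punches of dorsal and ventral DG of male C57BL6J mice, weaned on day 22 into standard housing (SH) or an enriched environment (EE) and collected at 80 days, after 8 weeks in that housing. SH animals lived with 3 mice per cage, and EE animals in larger groups with running wheels and toys that were changed. Each sample pooled whole tissue of several mice, and the dorsal and ventral samples of a replicate number came from the same mice. The 4 groups were dorsal SH (n = 4), dorsal EE (n = 5), ventral SH (n = 4) and, last, ventral EE (n = 5), 18 samples from 9 pools, with SH replicate 3 left out because *Xist*, an RNA of female cells, reached 34.4 CPM (counts scaled by library size) in its dorsal and 12.1 CPM in its ventral sample and at most 0.658 CPM in the others. Between 22919364 and 28301861 fragments were counted on genes per sample.

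Retinol is oxidised first to retinaldehyde and then, by the Aldh1a enzymes, to retinoic acid, which enters the nucleus and binds receptor pairs of a RAR and an RXR on DNA. *Dhrs3* returns retinaldehyde to retinol, and the Cyp26 enzymes oxidise retinoic acid to forms that are cleared, so both limit the supply. In the hippocampus, retinoic acid is known for effects on the neurogenesis of the DG and on synaptic strength.

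The punches held granule cells, the principal neurons of the DG, in all samples. *Prox1*, their defining transcription factor, ranged from 105 to 274 CPM, and 6 granule cell markers summed to 983 to 1220 CPM in dorsal and 496 to 737 CPM in ventral samples. The 12 markers of the choroid plexus, a secretory epithelium of the ventricles, summed to 27.9 to 219 CPM in dorsal samples, highest in dorsal SH replicate 1, and 405 to 1489 CPM in ventral samples. Markers of hilar mossy and CA3 neurons summed to 182 to 236 CPM dorsally and 276 to 322 CPM ventrally. In that sum, *Calb2* (11.1 to 25.2 and 58.3 to 101 CPM) and *Grik4* (52.9 to 62.8 and 76.7 to 87.7 CPM) were higher ventrally. *Iyd* was higher dorsally (9.51 to 13.1 and 3.82 to 5.84 CPM), and *Drd2*, *Csf2rb2* and *Bok* overlapped. Markers of ependymal cells summed to 3.29 to 7.62 and 7.78 to 16.7 CPM. Those of the habenula and thalamus summed to 84.5 to 121 and 24.2 to 34.3 CPM. Most of the last sum was *Prkcd* (73.4 to 100.3 CPM dorsally and 13.1 to 18.9 CPM ventrally). The next most abundant of these markers, *Tcf7l2* and *Rgs16*, overlapped between the regions. Of the 7 markers, 5 were called higher dorsally and 0 ventrally in the region test described below, beside 15.9% and 16.8% of all genes. The rarer *Gpr151* reached 4.35 CPM dorsally and 0.392 CPM ventrally, *Pou4f1* 1.10 and 0.116 CPM, and *Gng8* 1.45 and 0.362 CPM, with overlapping ranges. *Tac2* was 0.430 to 3.15 CPM dorsally and 0.666 to 1.59 CPM ventrally, also overlapping. Sums for CA1 and subiculum neurons, interneurons, astrocytes, oligodendrocytes, microglia and endothelial cells overlapped between the regions. Single markers could still differ. Of 5 CA1 and subiculum markers, 2 were called dorsal and 2 ventral, and of 5 astrocyte markers 0 and 1, beside 15.9% and 16.8% of all genes. Within the interneuron sum, *Sst* (47.2 to 56.1 CPM dorsally and 91.9 to 108 CPM ventrally) and *Vip* (5.92 to 8.4 and 11.0 to 16.9 CPM) did not overlap. *Gad1*, *Gad2*, *Slc32a1* and *Pvalb* did. In bulk tissue, fewer cells of a type and less RNA per cell cannot be told apart, and the part of these cells in the differences below was not tested.

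Receptor pairs bind direct repeats of a short unit, and a repeat with 5 bases between its units is the known form in genes that retinoic acid induces. RefSeq promoters (GRCm38.p6, 250 bases before to 50 after each start) were matched for 7 of the 9 genes, with 13 promoters. They were searched on both strands for the units AGGTCA or AGTTCA or GGGTCA or GGTTCA, repeated in one direction with 5 bases between them. Among the 9 genes only *Rarb* had a match, and among 32 other retinoid genes with a promoter only *Cyp26a1*, the sister enzyme of *Cyp26b1*. Of all 32851 promoters, 32 (0.0974%) held the repeat, whereas 43.7% held at least a single unit. The promoter of *Cyp26b1* (chr6:84593761-84594060, minus strand) is shown because the set was built around this gene, and those of *Rarb* (chr14:16575427-16575726, minus strand, within the gene's annotated span) and *Cyp26a1* (chr19:37697558-37697857, plus strand) because they hold the repeat, in capitals.
Cyp26b1: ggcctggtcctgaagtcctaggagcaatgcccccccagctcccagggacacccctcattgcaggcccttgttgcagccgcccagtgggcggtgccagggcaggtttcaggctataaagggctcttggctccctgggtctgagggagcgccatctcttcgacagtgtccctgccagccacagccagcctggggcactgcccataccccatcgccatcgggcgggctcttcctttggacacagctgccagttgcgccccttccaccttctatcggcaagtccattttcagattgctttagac
Rarb: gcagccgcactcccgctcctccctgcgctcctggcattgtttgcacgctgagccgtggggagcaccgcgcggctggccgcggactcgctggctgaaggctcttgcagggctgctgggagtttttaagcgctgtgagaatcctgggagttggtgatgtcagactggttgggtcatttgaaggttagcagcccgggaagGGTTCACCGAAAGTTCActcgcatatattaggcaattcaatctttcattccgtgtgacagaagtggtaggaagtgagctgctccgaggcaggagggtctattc
Cyp26a1: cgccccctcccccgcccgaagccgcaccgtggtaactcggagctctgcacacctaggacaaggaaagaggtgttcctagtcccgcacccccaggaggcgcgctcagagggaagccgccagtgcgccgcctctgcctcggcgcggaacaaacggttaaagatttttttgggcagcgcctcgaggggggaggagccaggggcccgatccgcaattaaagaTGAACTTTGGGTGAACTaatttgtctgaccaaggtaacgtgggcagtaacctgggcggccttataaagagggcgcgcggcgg
The repeat reads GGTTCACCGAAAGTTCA on the strand of *Rarb* and begins 53 bases before the start. In *Cyp26a1* it reads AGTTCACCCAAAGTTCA on the opposite strand, and its first base in the sequence as printed lies 32 bases before the start. A match of letters does not show binding, and the absence of one in *Cyp26b1* says only that this window lacks these letters.

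Levels of different genes were compared by TPM, which accounts for transcript length. *Aldh1a1* was the most abundant of the 9 genes in all 4 groups, at 31.0 ± 2.62 TPM (SD, n = 4) in dorsal SH, 30.1 ± 3.06 (n = 5) in dorsal EE, 18.3 ± 2.34 (n = 4) in SH and 19.7 ± 1.98 (n = 5) in EE ventrally. It made up 94.5% to 96.5% of the summed TPM of the Aldh1a genes in the group means, so nearly all Aldh1a transcripts in these punches were *Aldh1a1*.

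In dorsal DG, *Cyp26b1* was second in level (4.50 ± 1.21 TPM in SH and 3.72 ± 0.737 in EE), next to *Dhrs3* (4.33 ± 0.855 and 3.64 ± 0.475), and the sample ranges of these neighbours overlapped. *Rara*, *Aldh1a2* and *Rarb* followed between 0.79 and 1.22 TPM in group means, and their ranges overlapped from each to the next. *Crabp2*, *Crabp1* and *Aldh1a3* were lowest, at 0.148 to 0.41 TPM, and likewise overlapped.

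In ventral DG the order differed. *Dhrs3* was second (5.63 ± 0.499 TPM in SH and 5.50 ± 0.978 in EE) and did not overlap the genes above or below it. *Rarb* came next (1.22 ± 0.215 and 1.07 ± 0.316), followed by *Aldh1a2* and *Rara*. *Cyp26b1* was sixth, at 0.403 ± 0.102 TPM in SH and 0.52 ± 0.163 in EE. The ranges of *Rarb*, *Aldh1a2*, *Rara* and *Cyp26b1* overlapped from each to the next in ventral EE, and in ventral SH only those of *Aldh1a2* and *Rara* did.

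**Figure D1:**
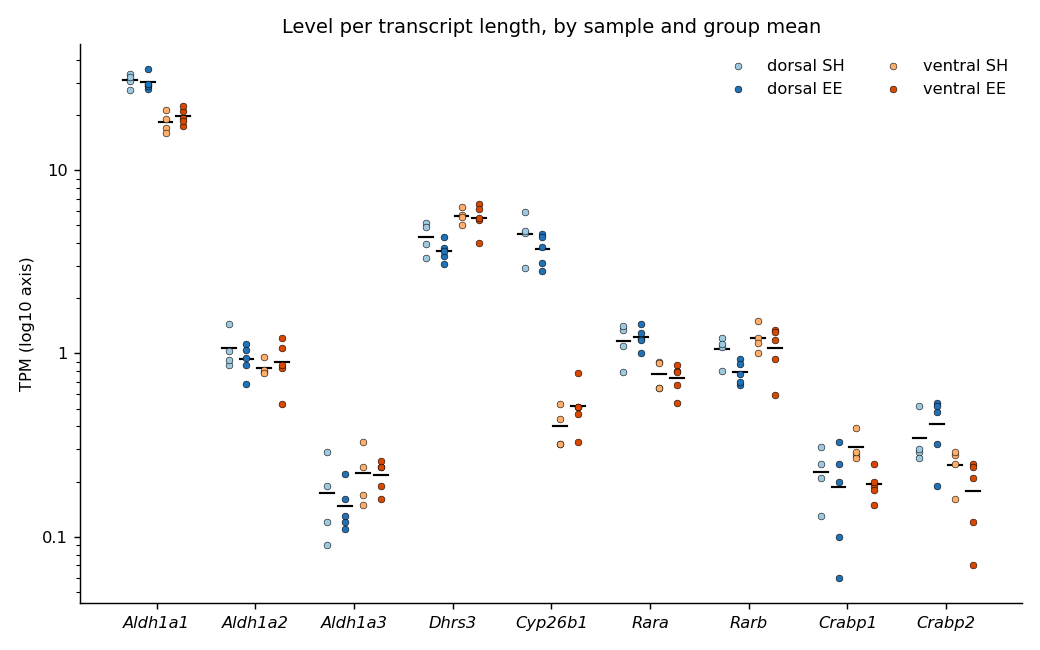
TPM of the 9 genes in each of the 18 samples (points) with the mean of each group (bars), on a log10 axis. *Aldh1a1* lies highest in all groups, and *Cyp26b1* lies between 2.82 and 5.88 TPM in dorsal samples and between 0.32 and 0.78 TPM in ventral samples.

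Ratios within a sample put the enzymes that make and remove retinoic acid side by side. *Aldh1a1* was 7.20 ± 1.55 times as abundant as *Cyp26b1* in dorsal SH and 8.27 ± 1.22 times in dorsal EE, against 46.6 ± 6.05 and 39.9 ± 8.60 times in ventral SH and EE. *Dhrs3* and *Cyp26b1* were near equal dorsally (ratios of 0.982 ± 0.132 and 0.997 ± 0.151), whereas *Dhrs3* was 14.4 ± 2.52 and 11.0 ± 1.80 times as abundant ventrally. Between the receptors, *Rara* to *Rarb* ran from 0.988 to 1.25 in dorsal SH, 1.31 to 1.79 in dorsal EE, 0.537 to 0.781 in ventral SH and 0.603 to 0.915 in ventral EE. *Rara* thus exceeded *Rarb* in each dorsal EE sample and was below it in each ventral sample.

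Between samples, expression was compared as CPM after TMM normalization, and region differences as log2 fold changes of dorsal against ventral averaged over both housings. *Cyp26b1*, the hydroxylase that clears retinoic acid, was at 41.3, 30.5, 36.7 and 32.4 CPM in dorsal SH (replicates 1, 2, 4 and 5) and at 39.0, 31.3, 37.6, 30.4 and 37.4 CPM in dorsal EE (replicates 1 to 5). In ventral SH it was at 4.52, 3.31, 4.13 and 3.0 CPM and in ventral EE at 5.59, 4.98, 5.41, 6.62 and 4.26 CPM. The lowest dorsal sample was thus more than 4 times the highest ventral one, and the log2 fold change was 2.97 (SE 0.09), or 7.85-fold. Within pools, the dorsal sample exceeded the ventral one 4.6- to 10.8-fold in all 9, and 9.65-fold in the left-out pool.

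The dehydrogenases did not share this pattern. *Aldh1a1* was at 115, 143, 124 and 112 CPM in dorsal SH and 151, 153, 141, 139 and 126 CPM in dorsal EE, against 95.7, 87.7, 81.2 and 74.4 CPM in ventral SH and 106, 130, 106, 95.9 and 82.5 CPM in ventral EE. Dorsal and ventral ranges overlapped, but the dorsal sample was higher in all 9 pools (1.18- to 1.63-fold), with a log2 fold change of 0.50 (SE 0.07). *Aldh1a2*, best known from the meninges in the adult brain, was 3.63 to 6.05 CPM dorsally and 3.16 to 5.60 CPM ventrally, with a log2 fold change of 0.02 (SE 0.10) and the dorsal sample higher in 6 of 9 pools. The 11 markers of meningeal and perivascular fibroblasts summed to 65.9 to 98.8 CPM dorsally and 91.7 to 112 CPM ventrally. They did not move together, as 1 was called dorsal and 4 ventral in the region test, beside 15.9% and 16.8% of all genes. *Aldh1a3* rested on 6 to 33 counts per sample, and its log2 fold change was -0.94 (SE 0.20), with the ventral sample higher in 8 of 9 pools.

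*Dhrs3*, which turns retinaldehyde back to retinol, was ventral. It was at 13.2, 13.4, 12.7 and 13.2 CPM in dorsal SH, 14.4, 13.4, 13.1, 13.4 and 12.6 CPM in dorsal EE, 20.7, 22.0, 18.8 and 19.0 CPM in ventral SH and 22.6, 21.5, 20.5, 20.8 and 21.3 CPM in ventral EE. No dorsal sample reached a ventral one, the ventral sample was 1.43 to 1.70 times the dorsal one in all 9 pools (1.44 times in the left-out pool), and the log2 fold change was -0.64 (SE 0.04). Choroid plexus markers, also ventral, varied from 405 to 1489 CPM among ventral samples, and the ventral sample with the highest sum (EE replicate 3) had 20.5 CPM of *Dhrs3* and the one with the lowest (SH replicate 1) 20.7 CPM. Dorsal SH replicate 1, with the highest dorsal sum, had 13.2 CPM. These samples were picked by their sums, and *Dhrs3* ran from 18.8 to 22.6 CPM over all ventral samples. The part of the choroid plexus in the *Dhrs3* difference was not tested.

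The receptors went opposite ways. *Rara* was at 5.99, 5.47, 6.11 and 6.44 CPM in dorsal SH and 7.96, 7.33, 7.93, 7.34 and 7.55 CPM in dorsal EE, and at 4.03, 4.55, 4.62 and 4.82 CPM in ventral SH and 5.01, 5.21, 5.72, 4.73 and 4.82 CPM in ventral EE. The highest ventral EE sample lay above the lowest dorsal SH sample, the dorsal sample was higher in all 9 pools (1.2- to 1.59-fold) but lower in the left-out pool (0.901-fold), and the log2 fold change was 0.50 (SE 0.06). *Rarb*, the receptor gene that holds the repeat shown above, was at 6.13, 6.01, 6.11 and 5.73 CPM in dorsal SH, 5.67, 5.88, 4.72, 5.18 and 5.56 CPM in dorsal EE, 8.93, 7.44, 8.51 and 7.82 CPM in ventral SH and 7.30, 6.88, 8.42, 8.43 and 8.45 CPM in ventral EE. The regions did not overlap, the ventral sample was 1.17 to 1.79 times the dorsal one in all 9 pools (1.28 times in the left-out pool), and the log2 fold change was -0.50 (SE 0.06). On the strand opposite to *Rarb* lay 6.41% of its fragments, the most for these genes.

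Both binding proteins were near the limit of these counts. *Crabp1*, known to pass retinoic acid to its breakdown, had 2 to 13 counts per sample, with a log2 fold change of -0.41 (SE 0.24) and the ventral sample higher in 7 of 9 pools. *Crabp2*, known to pass retinoic acid to its receptors, had 5 to 28 counts, with a log2 fold change of 0.66 (SE 0.22) and the dorsal sample higher in 7 of 9 pools. Their pool ratios spread from 0.296 to 2.49 and from 0.706 to 4.40, so at this depth neither had a direction shared by all pools. Over the 9 genes, dorsal and ventral samples did not overlap for *Cyp26b1*, *Dhrs3* and *Rarb*, beside 18.9% of the 17040 genes.

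**Figure D2:**
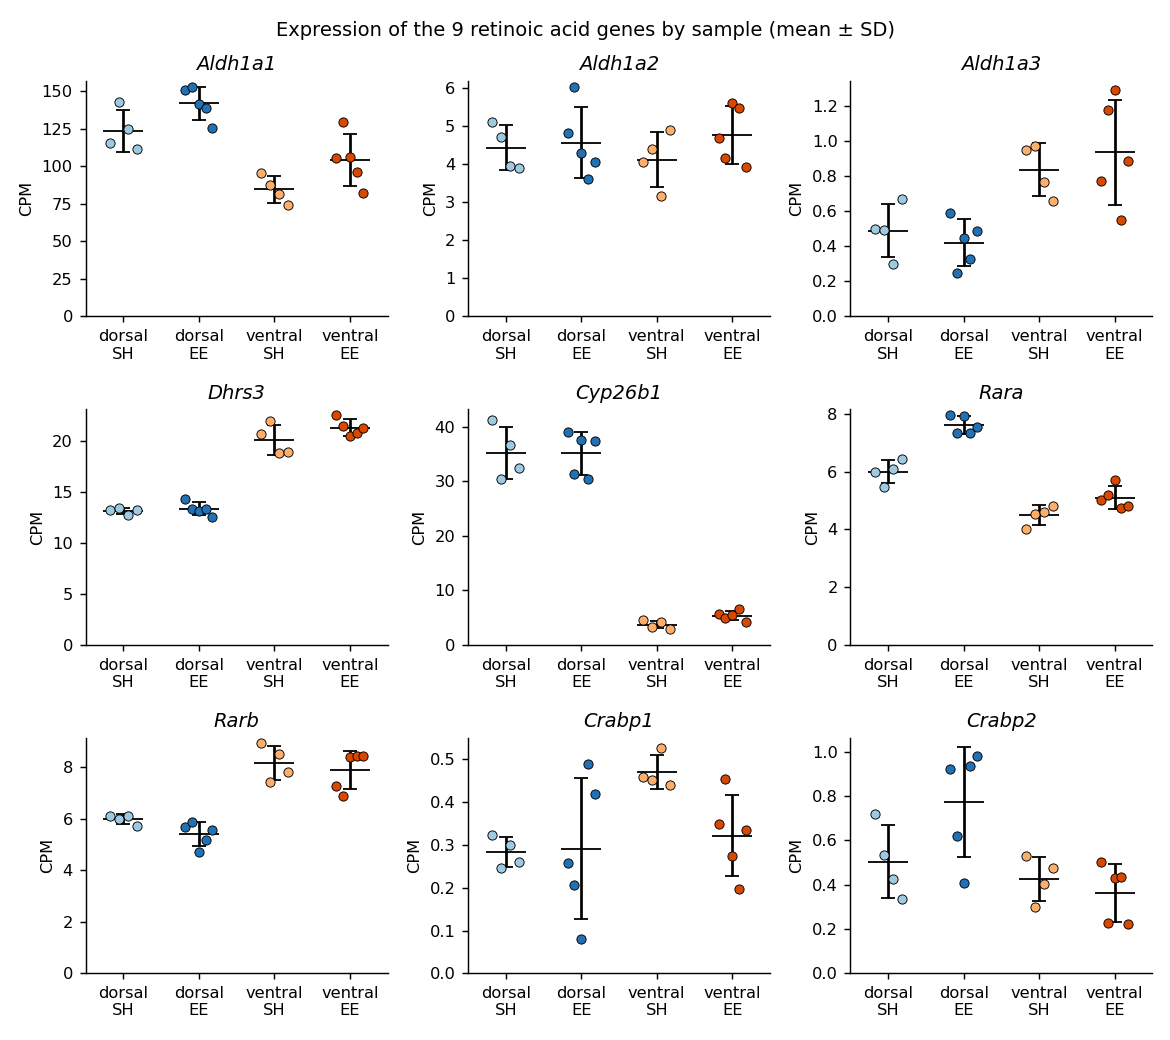
CPM of the 9 genes in each of the 18 samples (points), by group, with mean and SD (bars), on axes that start at 0. The 9 dorsal samples of *Cyp26b1* lie between 30.4 and 41.3 CPM and the ventral ones between 3.0 and 6.62 CPM, and those of *Dhrs3* and *Rarb* are separated the other way.

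**Figure D3:**
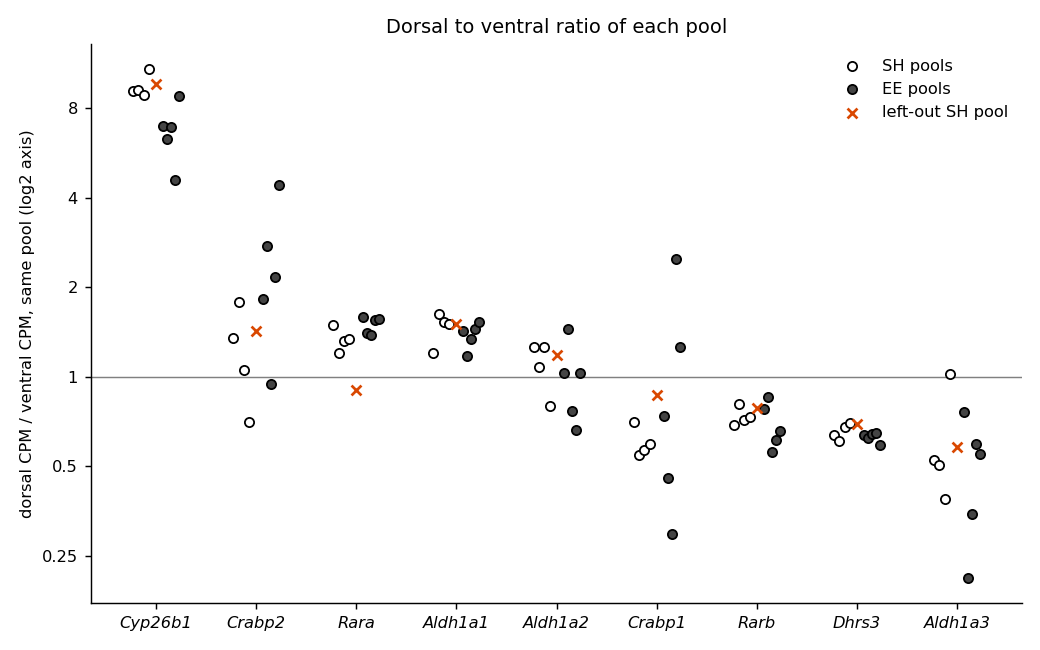
Dorsal CPM divided by ventral CPM of the same pool on a log2 axis, for 4 SH pools (open), 5 EE pools (filled) and the left-out SH pool (cross). *Cyp26b1* is at 4.6 to 10.8 in the 9 pools, *Dhrs3* and *Rarb* lie below 1 in every pool, and the cross of *Rara* is at 0.901.

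EE was compared with SH within each region with the quasi-likelihood method of edgeR, adjusting p values by Benjamini-Hochberg over all 17040 genes, and genes were called at an adjusted p under 0.05 with a fold change of at least 1.2. In dorsal DG, *Rara* was the only one of the 9 genes called (1 of 9, beside 0.634% of all genes tested and 0.387% raised). All 5 dorsal EE samples (7.33 to 7.96 CPM) lay above all 4 dorsal SH samples (5.47 to 6.44 CPM), as was so for 2.21% of the genes. *Rara* was raised by a log2 fold change of 0.34 (SE 0.08) or 1.27-fold, with an adjusted p of 0.0305 in the quasi-likelihood test. The size of this change moved little between analyses, while its adjusted p ran from 0.0287 to 0.15 over 16 alternatives and was under 0.05 in 6 of them. It was 0.0783 with the left-out pool included and 0.0586 on RSEM expected counts, and among the fits without 1 pool it stayed under 0.05 only without SH replicate 5 (0.0461) and without EE replicate 2 (0.0431).

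As TPM, *Rara* was 0.79 to 1.41 in dorsal SH and 1.01 to 1.44 in dorsal EE, which overlapped. The median gene was 0.174 lower in dorsal EE than in dorsal SH on the log2(TPM + 1) scale, so TPM is not centred between these groups. The summed granule cell markers were 1099 to 1220 CPM in dorsal SH and 983 to 1135 CPM in dorsal EE, and their part in the *Rara* difference was not tested.

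The other 8 genes did not pass the dorsal test. *Cyp26b1* had a log2 fold change of -0.0032 (SE 0.10), *Dhrs3* of 0.02 (SE 0.06) and *Aldh1a2* of 0.04 (SE 0.15). *Aldh1a1* had 0.20 (SE 0.10; adjusted p = 0.584 in edgeR) and *Rarb* -0.15 (SE 0.09; adjusted p = 0.682 in edgeR), and for both, EE and SH samples overlapped. *Crabp2*, with at most 28 counts, had 0.62 (SE 0.28; adjusted p = 0.535 in edgeR).

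In ventral DG none of the 9 genes was called by this edgeR fit, beside 0.241% of all genes tested, and 3 of 9 had an unadjusted p under 0.05, beside 7.58%. These were *Cyp26b1*, *Aldh1a1* and *Rara*, all with higher means in EE. *Cyp26b1* was 3.0 to 4.52 CPM in ventral SH and 4.26 to 6.62 CPM in ventral EE, where only EE replicate 5 fell within the SH range. Its log2 fold change was 0.52 (SE 0.15), with an adjusted p of 0.247 in edgeR, but DESeq2 (adjusted p = 0.0416) and edgeR without the filter on low counts (adjusted p = 0.047) called it. *Aldh1a1* had a log2 fold change of 0.29 (SE 0.10; adjusted p = 0.384 in edgeR) and *Rara* of 0.18 (SE 0.08; adjusted p = 0.643 in edgeR), both with overlapping samples. With the replicate number as a block, edgeR called *Aldh1a1* (log2 fold change 0.28, adjusted p = 0.0294).

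The EE effect on *Cyp26b1* was near 0 dorsally and positive ventrally, and the difference between these effects was -0.52 (SE 0.18) on the log2 scale. In terms of pools, dorsal exceeded ventral 8.88- to 10.8-fold in the 4 SH pools and 4.6- to 8.77-fold in the 5 EE pools. How many of all genes separate the pools in this way was not counted. The interaction had an unadjusted p of 0.00838 and an adjusted p of 1.00 in edgeR over all genes. Of the 9 genes none was called for the interaction, beside 0.00587% of all genes, and *Cyp26b1* was the only one with an unadjusted p under 0.05, beside 3.25%. For *Rara*, the effects of 0.34 and 0.18 in the regions differed by 0.17 (SE 0.11; adjusted p = 1.00 in edgeR), so a difference between regions was not shown.

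**Figure D4:**
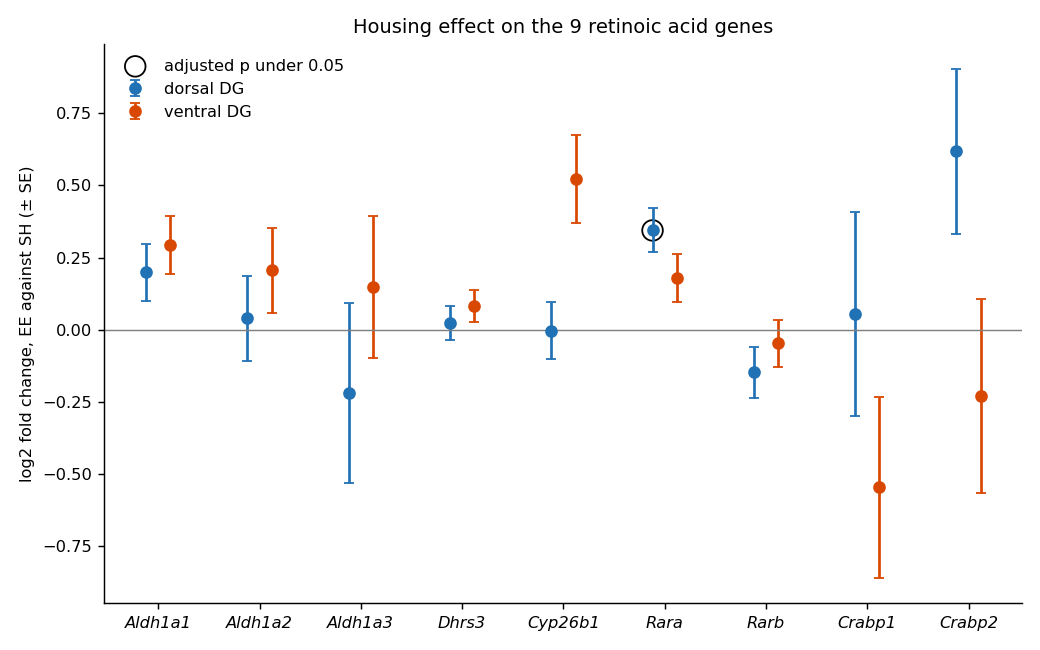
Log2 fold change of EE against SH (points) with SE (bars) for the 9 genes in dorsal and ventral DG, fitted over 18 samples. Only dorsal *Rara* (0.34) is circled as past the test, ventral *Cyp26b1* is at 0.52, and the bars of *Crabp1*, *Crabp2* and *Aldh1a3* are the widest.

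A wider list of 43 retinoid genes, which did not include these 9, was tested for the region difference, and 31 had enough counts. The list was chosen with earlier results of these data known, so its counts are not independent of them. Of these 31, 18 were called, 6 with more expression dorsally and 12 ventrally, beside 32.7% of all genes called, 15.9% dorsal and 16.8% ventral. The list's median log2 fold change was -0.15, against -0.0046 over all tested genes. The 12 genes left untested, among them the storage enzyme *Lrat* and the hydroxylase *Cyp26c1*, had at most 9 counts in any sample.

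*Cyp26a1*, the other retinoic acid hydroxylase with enough counts, ran opposite to *Cyp26b1*. It had 3, 2, 1 and 4 counts in dorsal SH and 1, 1, 3, 5 and 1 in dorsal EE, against 21, 22, 15 and 25 in ventral SH and 32, 18, 20, 20 and 27 in ventral EE. The regions did not overlap, and the summed counts of 21 and 200 gave a ventral level 9.51 times the dorsal one, given as a description. Within pools, the ventral sample was 3.86 to 33.7 times the dorsal one in all 9. No dorsal sample had more than 10 counts and all 9 ventral samples did, so the gene passed the filter on low counts only through ventral DG and had to differ. Its fitted log2 fold change of -3.15 (SE 0.25) is therefore a description, although the gene is among the 12 called ventral. Even so, *Cyp26a1* reached only 0.212 ± 0.046 TPM in ventral samples (n = 9), below the 0.468 ± 0.145 TPM of *Cyp26b1* there. In the promoters shown above, the repeat is in *Cyp26a1* and *Rarb*, both higher ventrally. The direction of *Cyp26a1* was fixed by the filter, and a link between repeat and region was not tested.

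Among receptors, *Rxrg* and *Rxra*, partners of the RARs, were ventral, and *Rarg* and *Rxrb* were not called. *Rxrg* was 0.773 to 1.26 CPM in dorsal and 3.33 to 5.71 CPM in ventral samples, without overlap, with a log2 fold change of -2.02 (SE 0.12; adjusted p = 2.57e-12 in edgeR). *Rxra* had a log2 fold change of -0.64 (SE 0.05).

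Coregulators of nuclear receptors were the dorsal group, with 4 of the 5 reported called higher in dorsal DG and 0 in ventral DG. Of all genes tested, 15.9% were called dorsal and 16.8% ventral. The coactivator *Ncoa1* had a log2 fold change of 0.39 (SE 0.04), *Nrip1* of 0.33 (SE 0.04), the coactivator *Ncoa3* of 0.31 (SE 0.04) and the corepressor *Ncor1* of 0.29 (SE 0.03). *Ncoa2* had 0.18 (SE 0.03), under the fold limit. These proteins also serve many receptors other than those of retinoic acid.

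Of 8 retinol and retinal dehydrogenases and reductases with enough counts, 3 were called ventral and 0 dorsal. Of all genes tested, 32.7% were called, 16.8% ventral and 15.9% dorsal. The log2 fold changes of all 8 were negative. *Rdh5* had -0.91 (SE 0.10; adjusted p = 4.68e-08 in edgeR), and *Rdh10*, which carries out the first step from retinol to retinaldehyde in the embryo, had -0.38 (SE 0.04). *Rbp4*, the carrier of retinol in blood, had 0.46 (SE 0.11). *Fabp5*, a further carrier of retinoic acid, had -0.54 (SE 0.06).

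The list's class of genes known to be induced by retinoic acid left out the 9 genes. Of those 9, *Cyp26b1* was higher dorsally and *Dhrs3* and *Rarb* ventrally, without overlap. The class thus does not stand for all genes that retinoic acid induces. Of its 6 tested genes, 4 were called ventral and 0 dorsal, beside 16.8% and 15.9% of all genes. *Meis1* and *Meis2*, homeodomain factors, had log2 fold changes of -1.31 (SE 0.16; adjusted p = 3.61e-07 in edgeR) and -0.99 (SE 0.10; adjusted p = 1.73e-08 in edgeR), and *Rarres2* and *Rai14* had -0.87 (SE 0.09) and -0.50 (SE 0.08). *Tgm2* and *Cd38* were not called. These ventral genes moved with the choroid plexus markers between regions, of which 12 of 12 were called ventral, and their part in the list's differences was not tested. In dorsal SH replicate 1, where the choroid plexus sum was 219 CPM beside 27.9 to 74.4 CPM in the other dorsal samples, *Rdh5* was 1.47 CPM within 1.37 to 1.83 CPM of all dorsal samples. Among ventral samples, *Rdh5* was highest (4.08 CPM) in EE replicate 3, which had the highest choroid plexus sum. It was next in SH replicate 5 (3.36 CPM) and EE replicate 4 (3.31 CPM), which had the next highest sums. The other 6 were at 2.63 to 3.11 CPM. *Rarres2*, one of the induced genes, did not follow this order. It was highest in SH replicate 2 (7.14 CPM), then in EE replicate 3 (7.09 CPM). In SH replicate 5 and EE replicate 4 *Rarres2* was 5.66 and 5.43 CPM. *Rxrg* was lowest (3.33 CPM) in EE replicate 3.

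**Figure D5:**
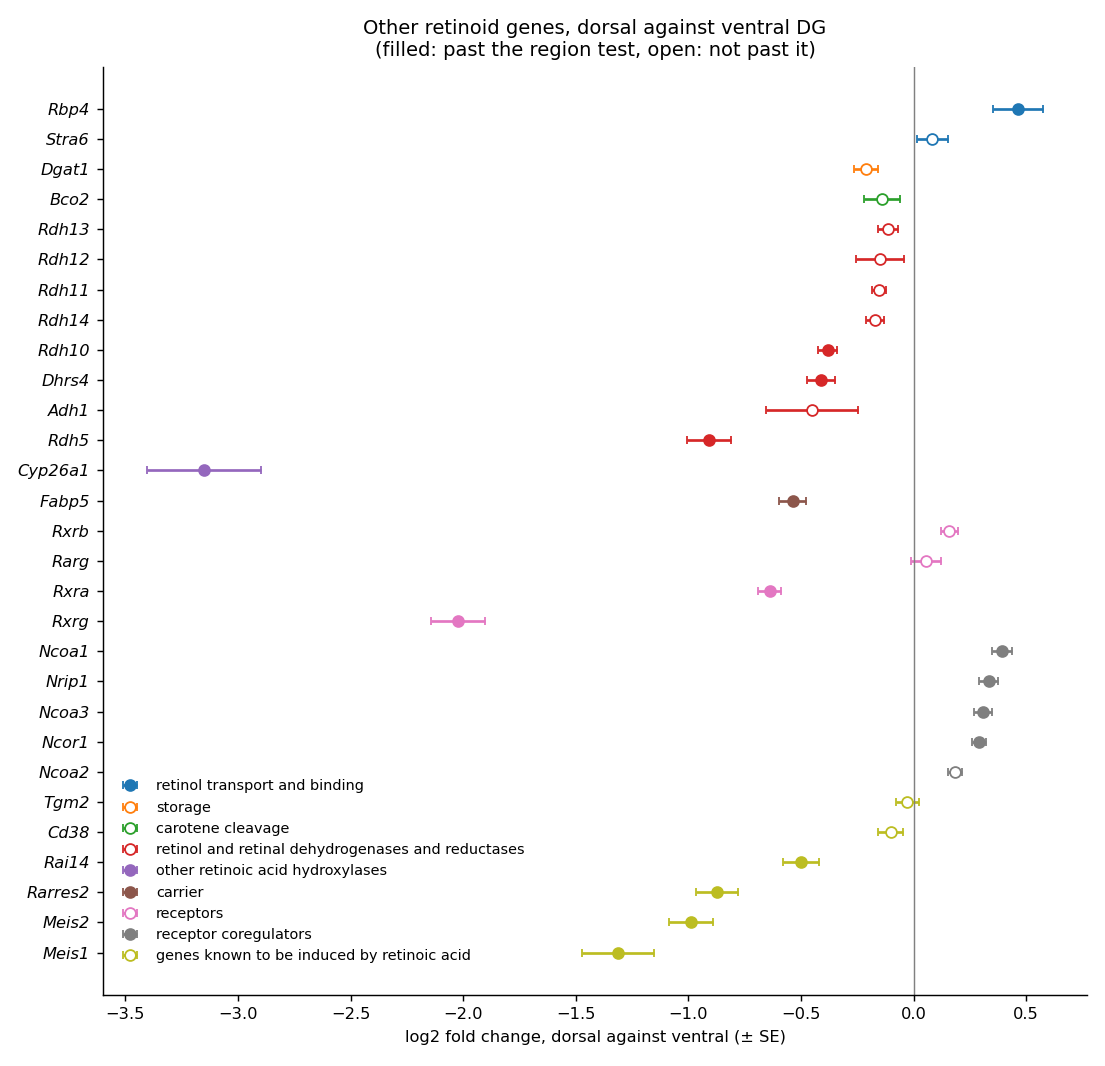
Log2 fold change of dorsal against ventral DG (points) with SE (bars) for 29 other retinoid genes, coloured by role and fitted over 18 samples. The receptor coregulators lie at 0.18 to 0.39, on the dorsal side, and *Cyp26a1* (-3.15) and *Rxrg* (-2.02) lie farthest to the ventral side.

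For housing, 0 of the 31 genes was called by edgeR in dorsal DG and 0 in ventral DG, with 3 and 6 at an unadjusted p under 0.05, beside 8.81% and 7.58% of all genes. The interaction called 0 of 31, with 0 at an unadjusted p under 0.05. DESeq2 called *Tgm2* alone in ventral DG and 0 genes in dorsal DG. *Tgm2*, a transglutaminase that retinoic acid is known to induce, was 13.1 to 14.6 CPM in ventral SH and 15.7 to 18.2 CPM in ventral EE, without overlap (1.28% of genes were higher in EE in this way). In dorsal DG *Tgm2* was 13.3 to 14.4 CPM in SH and 14.5 to 19.1 CPM in EE, narrowly without overlap (2.21% of genes). Its log2 fold changes were 0.29 (SE 0.07; adjusted p = 0.106 in edgeR and 0.0336 in DESeq2) ventrally and 0.22 (SE 0.07; adjusted p = 0.225 in edgeR) dorsally. *Rdh10*, with SH above EE without overlap in both regions (beside 1.78% of genes dorsally and 1.17% ventrally), had -0.20 (SE 0.06; adjusted p = 0.161 in edgeR) dorsally and -0.18 (SE 0.06; adjusted p = 0.304 in edgeR) ventrally. Both genes were picked out after their values were seen.

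The genes whose pattern over the 18 samples was most like that of *Cyp26b1* were found by the root mean square difference of centred log2 CPM, over the 12200 genes that exceeded 1 TPM in 3 samples or more, for which the median was 1.49. *Prkcd*, a protein kinase C, was nearest (0.382), with 82.1 ± 9.93 CPM (n = 9) in dorsal and 16.4 ± 2.29 CPM (n = 9) in ventral samples. It was followed by *Mylk3*, a myosin light chain kinase (0.403), *Pla2g2f*, a secreted phospholipase (0.509), *Otos* (0.546) and the synaptic vesicle protein gene *Syn3* (0.581). Their dorsal to ventral log2 fold changes were 2.32 (SE 0.08), 2.59 (SE 0.11), 2.21 (SE 0.09), 3.34 (SE 0.19) and 1.88 (SE 0.05), given as a description. *Prkcd* also stands in the list of habenula and thalamus markers.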

How the data were processed

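RNA-Seq of dorsal and ventral DG was used. The methylation samples of the series were not analysed here. Libraries were made with a stranded total RNA kit and sequenced in pairs. Per the authors' methods, reads were aligned with STAR in its counting mode (STAR 2.5.1b, Trim Galore 0.4.0 and RSEM 1.2.30 are named in the submitters' processing notes, with build mm10), and the deposited tables hold a raw count of fragments per gene, unstranded and for each strand. The authors also deposited an expected count, TPM and FPKM per gene, the last 2 scaled for length and total. Genes under 300 bases carried 11.8% to 27.9% of TPM, and the summed FPKM differed 1.84-fold between samples. Of the fragments, 32.6% to 40.9% were in no gene row and were left out of library sizes. Symbols were matched for 45968 of 46480 genes.

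The 9 genes, the retinoid list and the marker lists were chosen with earlier results of these data known. Counts of the strand of a reverse-stranded kit were normalized by TMM, genes over 10 counts in 2 samples or more were kept, and the 4 groups were fitted together with edgeR 4.0.16 in R 4.3.3. The region result is the mean of the dorsal to ventral differences in SH and EE. SEs are the log2 fold change divided by the square root of F. Calls needed a Benjamini-Hochberg adjusted p under 0.05 and, except for the interaction, a fold change of at least 1.2. The procedure was tested on simulated data. Replicates differed by a chi-square per degree of freedom of 2.83 to 36.4 over 32 pairs, so each was counted as a sample. SH replicate 3 was taken to be the sample the authors left out for *Xist*, since they give no number. From the list of 43 genes, those called by region were named, up to the 5 largest in each direction, and further ones are given as values. Of this list, 2 genes enter the counts over the whole list but are not reported here. Each pool's dorsal and ventral samples come from the same mice, and their deviations from group means correlated at 0.0827 on average over 9 pairs, against -0.0230 between different pools. Alternatives were RLE size factors, DESeq2 1.42.0, no filter, unstranded counts, RSEM expected counts rounded to whole numbers, all 20 samples, each pool left out, a replicate block, a joint test of both housings, the log2(TPM + 1) scale and FPKM. Python 3.11.15, numpy 2.4.6, pandas 2.3.3 and matplotlib 3.10.9 were used. With counting depths of 22919364 to 28301861 fragments, genes of about 10 counts could not be measured closely.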

Additional observations from a re-analysis of the deposited data

Results flagged for a closer look

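Single samples were compared with the rest of their group by Dixon's test for 19 genes in 4 groups (76 groups), and chance gives about 1 such sample in 20 groups. A single sample stood apart. *Meis1* was 0.679 CPM in ventral EE replicate 2, whereas the other ventral EE samples were at 1.18 to 1.33 CPM. For none of the 9 retinoic acid genes did a sample stand apart in this way, and for none did EE move all samples in opposite directions in the regions.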

How the results depend on the processing

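The order of TPM levels kept 32 of 36 ranks with all 20 samples. It kept 36 of 36 with FPKM, which orders the genes of a sample as TPM does, so that result was nearly fixed in advance. *Cyp26b1* had a region log2 fold change of 2.93 to 3.04 without single pools and 1.79 on the log2(TPM + 1) scale, where the pseudocount compresses low levels. The region test called 5162 to 5607 genes and 18 to 19 of the retinoid list without single pools. For dorsal EE, 70 to 109 genes were called without single pools, and 0 or 1 of the 9 genes. That 1 is *Rara*, lost (0 called) with all 20 samples, with no filter on low counts (adjusted p = 0.0645), on RSEM expected counts and without 7 of the 9 pools (adjusted p up to 0.15, without SH replicate 2), at log2 fold changes of 0.30 to 0.36. For ventral EE, 18 to 50 genes were called without single pools (18 without SH replicate 4, 24 without SH replicate 2 and 26 without EE replicate 3), 0 of the 9 genes, and 0 or 1 of the retinoid list, *Tgm2* without EE replicate 2 (adjusted p = 0.0497). Ventral EE called 78 genes with no filter and 75 with DESeq2, with 1 of the 9 genes (*Cyp26b1*) in each, and 1 of the retinoid list (*Tgm2*) with DESeq2. The interaction called 0 genes without any single pool in place of 1, and 0 of the 9 genes or the list.

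Dorsal EE effects near 0 changed sign. With all 20 samples *Cyp26b1* had 0.012, *Aldh1a2* -0.0092 and *Dhrs3* -0.0028, and on expected counts *Cyp26b1* had 0.00099 and *Crabp1* -0.0020. Without single pools these ran from -0.066 to 0.086 for *Cyp26b1*, -0.076 to 0.12 for *Aldh1a2*, -0.18 to 0.28 for *Crabp1* and -0.0015 to 0.049 for *Dhrs3*, none called. In the 20 samples *Rara* was lower dorsally in the added pool only.

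The labels do not say whether same-numbered EE and SH samples share more than a number. Their deviations correlated at 0.0815 to 0.175 (mean 0.126, 8 pairs). Pairs of different numbers were at -0.227 to 0.233 (mean -0.0314, 32 pairs). With the replicate block, dorsal EE called 172 genes and ventral EE 87, among them *Aldh1a1* (1 of the 9 genes; log2 fold change 0.28, adjusted p = 0.0294), and dorsal *Rara* kept its call (adjusted p = 0.0474). With the pool as the replicate block, the interaction called 2 genes, none of them among the 9, and the region test 5611 genes and 18 of the list. The block changed no other call of the 9 genes. The cause of these shifts was not tested. Depth limits *Crabp1*, *Crabp2*, *Aldh1a3* and dorsal *Cyp26a1*.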
